A study of Homo sapiens with 2 samples.

Results

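Proteins bound for the secretory pathway enter the endoplasmic reticulum (ER) through a shared gate, and 33 genes of that gate were followed here in SF-539 cells, a human glioblastoma (GBM) cell line. They were chosen by name among the protein-coding genes and encode subunits of the signal recognition particle (SRP) and its receptor, the translocon and its partner complexes, signal peptidase and oligosaccharyltransferase (OST). All 33 were found among the 58735 genes of the deposited values. FKBP9, the gene depleted in the study, encodes a prolyl isomerase of the ER, and the comparison addresses whether its loss alters ER function. Cells had been infected with pGIPZ-CTRL lentivirus (shControl) or with lentivirus carrying an shRNA against FKBP9 (shFKBP9), selected with puromycin as stable clones and grown in DMEM with FBS. RNA-Seq was made of 1 library per condition, so the differences have no replicate check, no test between the conditions was possible, and what follows compares these libraries. Which of the FKBP9 shRNAs the sequenced cells carried, and whether they were 1 clone or several, is not given in the sources used here, and in bulk RNA a lower level in every cell cannot be told apart from fewer cells with the transcript.

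SRP binds the signal sequence as it leaves the ribosome and docks, through its receptor, at the Sec61 channel. Behind the channel, signal peptidase removes the signal sequence and OST transfers a preassembled glycan from dolichol to asparagine residues, which makes the module the entry step of N-glycosylation. Collagens, fibronectin and growth factor receptors, which glioma cells make, all pass through this gate.

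Levels are given as FPKM, fragments scaled by gene length and by library size. The shControl library held 18116873 fragments on genes and the shFKBP9 library 17158514, and 1 fragment on a gene of 1 kilobase was worth 0.0552 and 0.0582 FPKM. FKBP9 itself was at 49.8 FPKM in shControl and 4.68 in shFKBP9 (4659 and 415 fragments), a log2 ratio of -3.38 (95% counting interval -3.56 to -3.27), so that 9.39% was left. The labels call the line epithelial glioma cells, but the mesenchymal markers VIM, CD44, FN1 and COL1A1 summed to 1468 and 1541 FPKM, whereas 5 epithelial markers summed to 1.77 and 1.75 and CDH1 had 0 and 1 fragments. The 6 glial and neural markers summed to 12.0 and 12.4 FPKM, nearly all of it SLC1A3 and NES, with GFAP at 0.196 and 0.139. Of the immune markers, PTPRC and CD3E had 0 fragments in both libraries and CD68 was at 0.353 and 0.293 FPKM. Endothelial markers summed to 0.0589 and 0.0813 FPKM and neuronal markers to 0.0817 and 0.0536.

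The promoters of the members were searched for elements of the unfolded protein response (UPR), because ER stress is the setting of the study. RefSeq promoter windows, from 250 bases before to 50 bases after an annotated start on GRCh38.p14, were available for 28 of the 33 members. The letters TGACGTGG, the core of the element bound by XBP1 and ATF6, were found on either strand for 4 of these members, SEC62, SRP19, SSR3 and SSR4. Over all 27305 symbols with a window, 0.927% held them, and among the 8303 tested genes with a window the share was 1.26%. The stretches are shown because SEC62 and SRP19 are also among the members with the largest differences described below. SEC63, also among those members, had a window without these letters. TRAM1, also among them, had no window, nor had TUSC3, SPCS1, RPN1 and STT3B. The capitals mark the match, which in all 4 genes reads on the gene's own strand as the reverse complement of the letters searched.

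SEC62: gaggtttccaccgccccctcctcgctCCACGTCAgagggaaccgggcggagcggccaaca
SRP19: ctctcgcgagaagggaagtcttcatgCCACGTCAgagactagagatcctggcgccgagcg
SSR3: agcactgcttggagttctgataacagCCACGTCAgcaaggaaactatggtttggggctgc
SSR4: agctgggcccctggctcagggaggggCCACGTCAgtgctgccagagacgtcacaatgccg

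The SEC62 stretch lies at chr3:169966764-169966823 on the plus strand and its match begins 17 bases before the RefSeq start. The SRP19 stretch lies at chr5:112861149-112861208 on the plus strand, with the match 112 bases before the RefSeq start. The SSR3 stretch lies at chr3:156554133-156554192 on the minus strand, 41 bases before the most downstream of 3 annotated starts, and the SSR4 stretch at chrX:153794513-153794572 on the plus strand, 129 bases before the downstream one of 2 annotated starts. The deposited gene spans begin elsewhere, and the matches of SEC62, SSR3 and SSR4 lie inside them while that of SRP19 lies before it. The full ER stress response element, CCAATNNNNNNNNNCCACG, was found for 0 of the 28 members and for 0.0916% of all symbols. Its last letters CCACG, which also make up part of the matches above, were found for 19 of the 28 members (67.9%), for 42.1% of all symbols and for 58.0% of tested genes. Tested genes with the core had a median log2 ratio of -0.00, against -0.02 over the 8303. A match is a description of the letters and not a binding site. The 4 members did not move alike. The log2 ratio of shFKBP9 to shControl, computed here and below for single genes with 0.1 added to FPKM, was 0.41 for SEC62, 0.32 for SRP19, 0.18 for SSR3 and -0.02 for SSR4.

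All members but TUSC3 were detected in both libraries. Together the members held 104548 fragments in shControl, 0.577% of the library (95% interval 0.574 to 0.581), and 102019 in shFKBP9, 0.595% (0.591 to 0.598). The intervals here and below are exact Clopper-Pearson intervals of the fragments and cover counting error only, not the spread between cultures. In FPKM the members summed to 1780 and 1854. At shControl, 27 of the 33 members were above 10 FPKM and 9 were above 100 FPKM. At 10 FPKM or more in both libraries were 27 members and 3953 of the 10346 protein-coding genes at 1 FPKM in either. The share of all genes above 100 FPKM was not computed. The highest was DAD1, a small membrane subunit of OST, at 191 and 216 FPKM, followed by RPN2 at 160 and 153 FPKM and DDOST at 154 and 142 FPKM. At the other end stood SRP19 at 1.52 and 1.93 FPKM, SEC61A2 at 2.95 and 3.09 FPKM and SEC11C at 3.75 and 3.27 FPKM, with TUSC3 at 0.

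**Figure D1:**
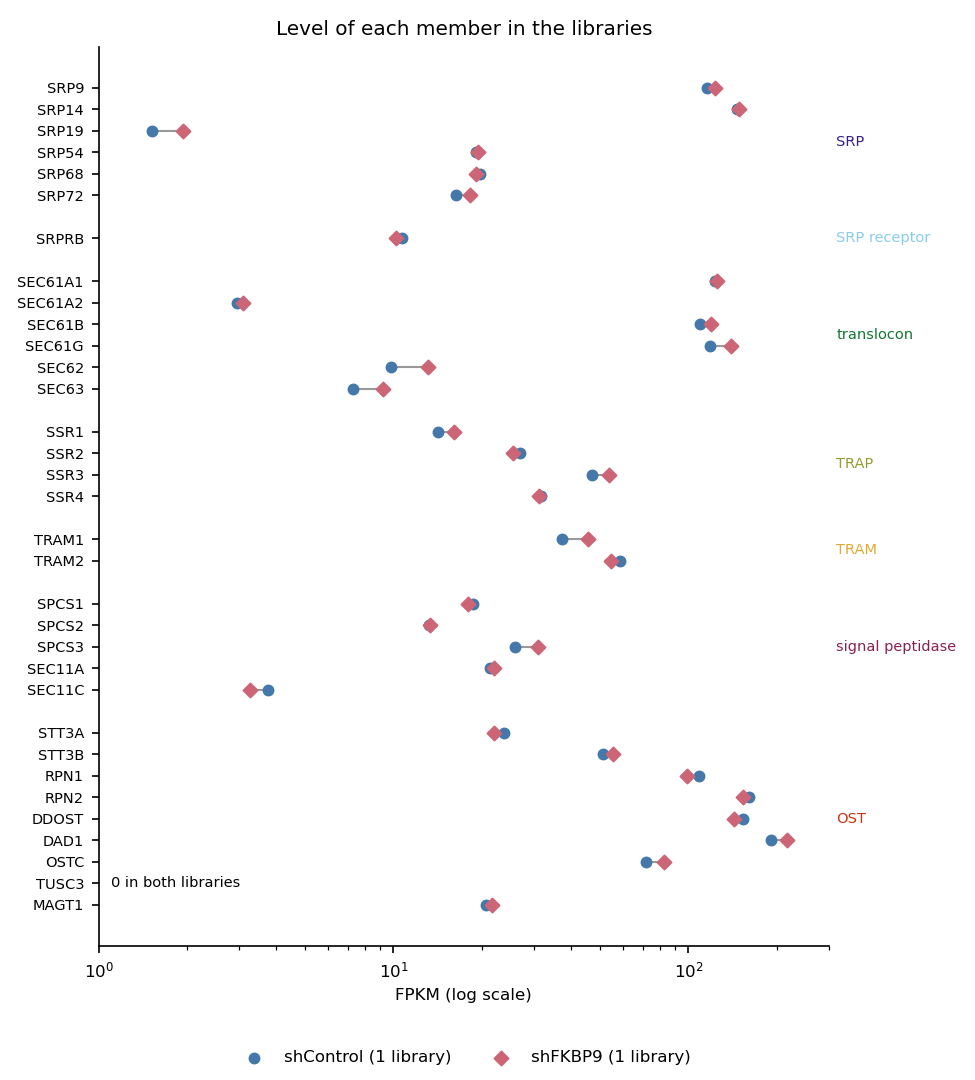
Level of each of the 33 members in the shControl (circles) and shFKBP9 (diamonds) library in FPKM on a log axis, grouped by complex, with 1 library per condition. Levels span from 1.52 FPKM for SRP19 to 191 FPKM for DAD1 in shControl, the symbols of most members nearly coincide, and TUSC3 had 0 fragments in both libraries.

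The deposited gene length exceeded that of the canonical transcript for every member but TRAM2, which lowers the FPKM. The lengths differed most for SSR4, 7.55-fold (4590 against 608 bases), followed by SSR2 (6651 against 1108 bases), SEC11C at 5.70-fold, SEC11A at 5.33-fold and SEC61G at 4.33-fold (1842 against 425 bases). With the length of the canonical transcript, SEC61G moved from place 5 to place 1, at 514 FPKM in shControl and 604 in shFKBP9, SSR4 from place 15 to place 5, SSR2 from place 17 to place 10 and SEC11A from place 19 to place 13.

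Between the libraries the differences were small. Of the 33 members, 32 reached 1 FPKM in at least 1 library and were set beside the 10346 protein-coding genes that did so (tested genes). None of the 32 was more than 2-fold higher or lower in shFKBP9, where 0.213% of tested genes were past 2-fold higher and 0.193% past 2-fold lower. With 1.2-fold as the limit, 4 members were higher, SEC62, SEC63, SRP19 and TRAM1, which is 12.5% of 32 against 9.11% of tested genes. No member was past 1.2-fold lower, against 10.9% of tested genes. SPCS3, at a log2 ratio of 0.26, lay just inside 1.2-fold. The median log2 ratio of the members was 0.05, beside -0.02 over all tested genes, with 21 members above and 11 below 0, whereas 46.3% of tested genes were above 0. After an adjustment for GC content, described below, 0 members were past 1.2-fold higher, against 7.47% of tested genes, and the median of the members was 0.01.

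The counting interval of the log2 ratio lay above 0 for 14 members (43.8%), against 19.7% of tested genes, and below 0 for 5 members (15.6%), against 24% of tested genes. Among the 3953 genes at 10 FPKM or more in both libraries, the interval lay above 0 for 947 (23.96%) and below 0 for 1204 (30.5%), beside 11 (40.7%) and 5 (18.5%) of the 27 members at that level. At that level 1 member, TRAM1, was past 1.2-fold higher (3.70%), against 5.62% of the genes, and 0 were past 1.2-fold lower, against 5.03% of the genes.

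**Figure D2:**
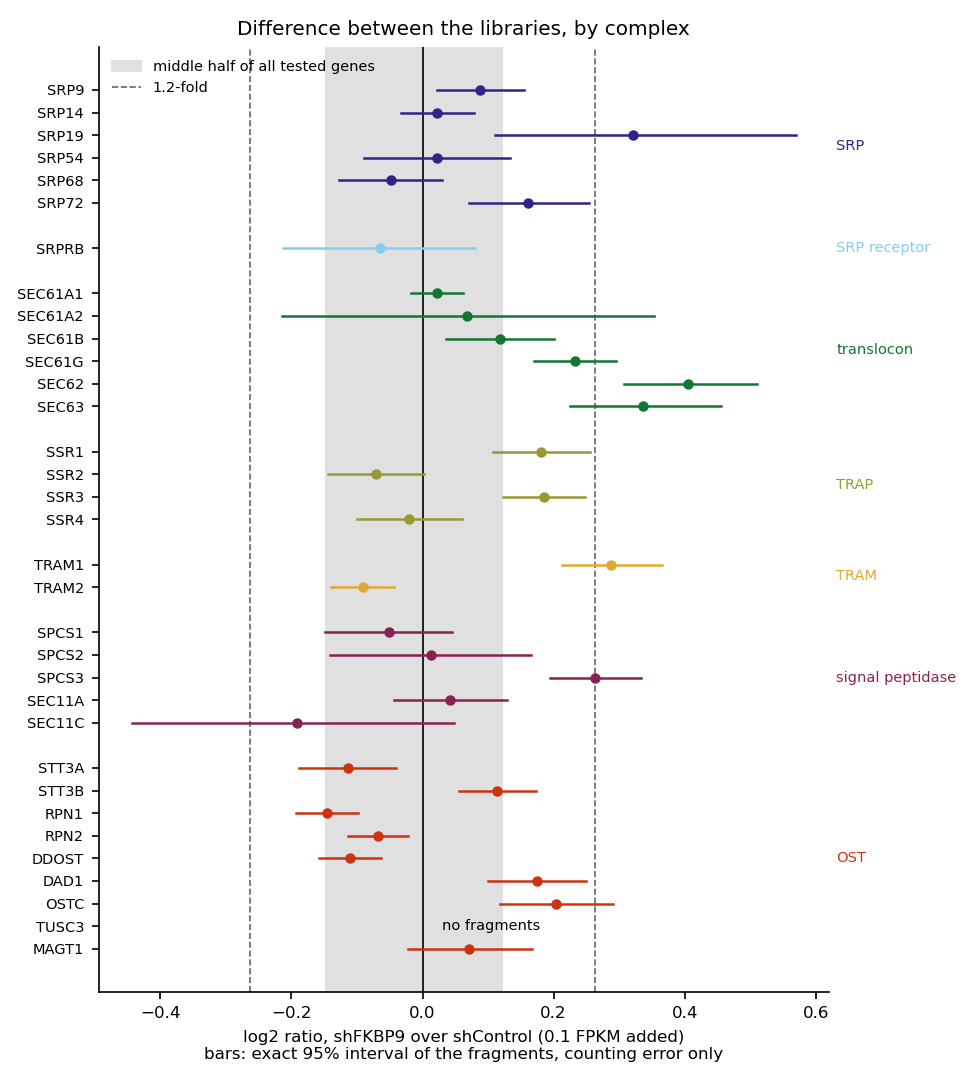
Log2 ratio of shFKBP9 to shControl for each member, with 0.1 added to FPKM, grouped by complex. Bars are exact 95% intervals of the fragments (counting error only), the grey band is the middle 50% of all tested genes (-0.15 to 0.12) and dashed lines mark 1.2-fold. All 6 translocon genes lie at or above 0.02, and OST subunits lie on both sides of 0.

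SEC62 and SEC63 of the translocon had the highest log2 ratios of the members. All 6 translocon genes had log2 ratios above 0, with a median of 0.18, and the counting interval lay above 0 for 4 of them, as it did for 19.7% of tested genes. SEC62, which assists the entry of short proteins after their synthesis and the recovery of the ER after stress, was at 9.83 FPKM in shControl and 13.0 in shFKBP9 (1411 and 1776 fragments), a log2 ratio of 0.41 (95% interval 0.31 to 0.51). SEC63, the J-domain partner that brings the chaperone BiP to the channel, was at 7.27 and 9.21 FPKM (1131 and 1358 fragments), a log2 ratio of 0.34 (0.23 to 0.46). These accessory subunits stood at a lower level than the channel they act on. SEC61A1, the pore itself, was at 123 and 125 FPKM, a log2 ratio of 0.02 (-0.02 to 0.06) that was not distinguishable from 0 by counting. The small channel subunits were SEC61B, at 110 and 119 FPKM (0.12, 0.04 to 0.20), and SEC61G, at 119 and 139 FPKM (0.23, 0.17 to 0.30). After an adjustment for GC content, described below, SEC62 was at 0.24, SEC63 at 0.23 and SEC61B at 0.18. SEC61A1 was then at 0.11, SEC61G at 0.10 and SEC61A2 at 0.05, and SRP19, outside the translocon, at 0.24. SEC62 lies on chromosome 3 from 169966635 to 169998373 and SEC63 on chromosome 6 from 107867756 to 107958189 (hg38).

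The 6 proteins of SRP had log2 ratios from -0.05 to 0.32. SRP19, which assembles SRP54 onto the SRP RNA, had the largest but also the fewest fragments, 290 in shControl and 348 in shFKBP9 (0.32, 0.11 to 0.57). SRP54, the subunit that binds the signal sequence, was at 19.1 and 19.4 FPKM (0.02, -0.09 to 0.13). SRP68 and SRP72 form a heterodimer, and SRP68 was at 19.6 and 18.98 FPKM (-0.05, -0.13 to 0.03) whereas SRP72 was at 16.3 and 18.2 FPKM (0.16, 0.07 to 0.25). After the adjustment for GC content they were at 0.01 and 0.03. SRP9 and SRP14, the heterodimer that pauses translation, were far more abundant than the rest of the particle, at 116 and 123 FPKM (0.09, 0.02 to 0.15) and at 146 and 148 FPKM (0.02, -0.03 to 0.08). Both also bind Alu RNA. SRPRB, the membrane anchor of the receptor, was at 10.7 and 10.2 FPKM (-0.07, -0.21 to 0.08), and SRPRA, which is no member, at 21.8 and 22.1 FPKM (0.02, -0.08 to 0.12).

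The translocon-associated protein complex (TRAP) and the TRAM proteins sit beside the channel and help weak signal sequences to enter. Within TRAP, SSR1 was at 14.1 and 16.04 FPKM (0.18, 0.11 to 0.25) and SSR3 at 47.1 and 53.6 FPKM (0.18, 0.12 to 0.25), while SSR2 was at 26.8 and 25.5 FPKM (-0.07, -0.14 to 0.00) and SSR4 at 31.6 and 31.1 FPKM (-0.02, -0.10 to 0.06). The intervals of the pair SSR1 and SSR3 lay above 0 and those of the pair SSR2 and SSR4 included 0. Among genes at 10 FPKM or more in both libraries, 23.96% had an interval above 0. After the adjustment for GC content the pairs were no longer apart, with SSR1 at 0.08, SSR3 at 0.05, SSR2 at 0.02 and SSR4 at 0.08. TRAM1 was at 37.3 FPKM in shControl and 45.5 in shFKBP9 (2617 and 3031 fragments), a log2 ratio of 0.29 (0.21 to 0.36). Its paralog TRAM2, known for its part in collagen synthesis, was at 58.4 and 54.9 FPKM (7310 and 6506 fragments), a log2 ratio of -0.09 (-0.14 to -0.04).

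Among the 5 genes of signal peptidase, SPCS3 alone had an interval above 0 (as 19.7% of tested genes did), at 25.8 and 31.0 FPKM (0.26, 0.19 to 0.33). SPCS3 encodes a subunit needed for cleavage. The other accessory subunits, SPCS1 at 18.6 and 17.9 FPKM (-0.05, -0.15 to 0.05) and SPCS2 at 13.2 and 13.3 FPKM (0.01, -0.14 to 0.17), were not distinguishable from 0 by counting. The catalytic subunit SEC11A was at 21.2 and 21.8 FPKM (0.04, -0.04 to 0.13). Its paralog SEC11C was at 3.75 and 3.27 FPKM from 306 and 253 fragments (-0.19, -0.44 to 0.05), the lowest ratio of all members, and its interval included 0. After the adjustment for GC content SPCS3 was at 0.09, SPCS1 at -0.13, SPCS2 at -0.12, SEC11A at 0.01 and SEC11C at -0.17, and the median of the group went from 0.01 to -0.12.

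The OST subunits lay on both sides of 0. RPN1, RPN2, DDOST and STT3A each had an interval below 0, and DAD1, OSTC and STT3B each had an interval above 0, where 30.5% of genes at 10 FPKM or more had an interval below 0 and 23.96% above. After the adjustment for GC content RPN1 was at -0.07, RPN2 at -0.01, DDOST at -0.02, STT3A at -0.15, STT3B at 0.01, OSTC at 0.10 and DAD1 at 0.21. RPN1, which presents substrates to the enzyme, was at 109 and 98.6 FPKM (-0.15, -0.19 to -0.10). DDOST was at 154 and 142 FPKM (-0.11, -0.16 to -0.06) and RPN2 at 160 and 153 FPKM (-0.07, -0.11 to -0.02). On the other side DAD1 was at 191 and 216 FPKM (0.17, 0.10 to 0.25) and OSTC, which ties the complex with STT3A to the translocon, at 71.7 and 82.6 FPKM (0.20, 0.12 to 0.29). OST4 and TMEM258, small membrane subunits of OST outside the 33 genes, were at 156 and 180 FPKM (0.20, 0.12 to 0.29) and at 24.7 and 27.2 FPKM (0.14, 0.03 to 0.25). KRTCAP2, a further subunit of the STT3A complex, had 89 and 69 fragments (-0.27, -0.77 to 0.18). The median over the 8 tested OST members was 0.00.

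OST exists in alternative forms built on either catalytic subunit, STT3A for glycosylation during entry and STT3B for sites missed at that step. STT3A was at 23.7 and 21.9 FPKM (3168 and 2775 fragments; -0.11, -0.19 to -0.04) and STT3B at 51.2 and 55.4 FPKM (4645 and 4766 fragments; 0.11, 0.06 to 0.17). STT3A therefore held 40.5% of the pair's fragments in shControl (39.5 to 41.6) and 36.8% in shFKBP9 (35.7 to 37.9), and per length it held 31.6% and 28.3% of the summed FPKM. The STT3B complex takes either MAGT1 or TUSC3 as its oxidoreductase. Of these only MAGT1 was detectable at this depth. MAGT1 had 1808 and 1802 fragments, 20.5 and 21.6 FPKM (0.07, -0.02 to 0.17), and TUSC3 had 0 fragments in both libraries, where a count of 0 allows up to 3 fragments or 0.0319 and 0.0337 FPKM.

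SEC61A1 held 98.0% of the fragments of its pair with SEC61A2 in both libraries, and SEC61A2 was at 2.95 and 3.09 FPKM (209 and 208 fragments). SEC11A held 87.8% of its pair with SEC11C in shControl (86.5 to 89.1) and 89.5% in shFKBP9 (88.2 to 90.7), intervals that overlap. In the TRAM pair, TRAM1 held 26.4% of the fragments in shControl (25.5 to 27.2) and 31.8% in shFKBP9 (30.8 to 32.7), intervals that do not overlap. Their log2 ratios of 0.29 and -0.09 came closer after the adjustment for GC content, at 0.12 and -0.02. How often the intervals of other gene pairs part between the libraries was not computed. Of tested genes, 19.7% had a counting interval of the log2 ratio above 0 and 24% below 0.

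The base composition of the transcripts moved with the differences. Over 10329 tested genes, the log2 ratio went down with the GC content of the canonical transcript (Pearson r = -0.37, Spearman rho = -0.45 across genes, which share both libraries and are not independent replicates). With the genes in 5 bins of like size, the median log2 ratio was 0.13 in the bin of lowest GC content (30.7% to 40.6%) and -0.12 in the bin of highest (58.3% to 74.4%), and the share past 1.2-fold higher was 20.1% in the former and 3.92% in the latter. Over the 32 members r was -0.63 and rho was -0.68. The members were poorer in GC than tested genes, with a median of 42.1% against 48.3%, and 14 of 32 fell in the bin of lowest GC content. Of the 16 members with the higher GC content 10 had log2 ratios below 0, and of the other 16 only 1, SPCS1, did. The share of tested genes below 0 in these ranges of GC content was not computed. SEC62 (36.5%), TRAM1 (36.8%), SEC63 (39.5%) and SRP19 (40.9%) were all poor in GC. For transcript length on the log2 scale, Pearson r was 0.00 and Spearman rho 0.02 over tested genes, and r was 0.19 and rho 0.22 over the members.

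Set against the median of tested genes of like GC content, an adjustment added after the data were seen, the 4 members past 1.2-fold higher became 0, where 7.47% of tested genes were past 1.2-fold higher and 7.43% past 1.2-fold lower in the same setting. SRP19 was then at 0.24, SEC62 at 0.24, SEC63 at 0.23, DAD1 at 0.21 and SEC61B at 0.18, while TRAM1 was at 0.12, SPCS3 at 0.09 and SEC61G at 0.10. All 6 translocon genes remained above 0, from 0.05 for SEC61A2 to 0.24 for SEC62. The sign turned to below 0 for 5 members (15.6%) and to above 0 for 3 (9.38%), a share that was not computed over all tested genes. Before the adjustment, the counting interval of each of these members but SRP9 already included 0. SRP9 went from 0.09 to -0.08, MAGT1 from 0.07 to -0.06 and SPCS2 from 0.01 to -0.12, and SRP14 and SRP54 also went below 0, while SSR2, SSR4 and SRP68 went above 0. The median of the members was 0.01 after the adjustment, with 19 above and 13 below 0. The part of GC content in the differences was not tested.

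Genes of the steps beside the gate were taken from a list of 70 symbols, of which 68 were found and 62 were tested. Of these 62, 2 were past 1.2-fold higher (3.23%, against 9.11% of tested genes) and 8 past 1.2-fold lower (12.9%, against 10.9% of tested genes), so that the share on the lower side was near that of all tested genes. After the adjustment for GC content 3 were past 1.2-fold higher (4.84%), GET4, OST4 and SIL1, and 3 past 1.2-fold lower (4.84%), NUS1, NOMO2 and TMEM147, against 7.47% and 7.43% of tested genes in that setting. The list had a median log2 ratio of -0.04, or -0.03 after the adjustment, and a median GC content of 51.5%. The lowest ratio was that of NUS1, which with DHDDS forms the enzyme that makes the dolichol chain on which the glycan of OST is built. NUS1 was at 20.5 FPKM in shControl and 8.16 in shFKBP9 (1737 and 655 fragments), a log2 ratio of -1.32 (-1.46 to -1.20) and -1.45 after the adjustment for GC content. It was the only gene of the module or of the list past 2-fold, and its pseudogene NUS1P1 held 16 and 9 fragments. DHDDS was at 8.26 and 7.09 FPKM (837 and 681 fragments; -0.22, -0.37 to -0.07), and at -0.13 after the adjustment. DOLPP1, which recycles the dolichol carrier, was at 10.9 and 9.01 FPKM (-0.27, -0.48 to -0.07). Of the other tested genes of glycan assembly, none was past 1.2-fold, and ALG5 stood highest at 13.4 and 15.7 FPKM (0.23, 0.06 to 0.41).

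After transfer the glycan is trimmed and read. MLEC, a lectin that binds glucosylated glycans and associates with RPN1, was at 54.2 and 45.1 FPKM (6601 and 5202 fragments; -0.27, -0.32 to -0.21). The glucosidase MOGS was at 24.1 and 20.2 FPKM (-0.25, -0.36 to -0.14), and PRKCSH, a subunit of the next glucosidase, had 9354 and 7863 fragments (-0.17, -0.22 to -0.13). UGGT2, which reglucosylates misfolded proteins, was at 5.30 and 6.52 FPKM (0.29, 0.16 to 0.44), while the lectin chaperones CALR and CANX were at -0.00 (-0.02 to 0.02) and 0.02 (-0.01 to 0.05). After the adjustment MLEC was at -0.21, MOGS at -0.12, PRKCSH at -0.05 and UGGT2 at 0.16.

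Of the 13 partners of the translocon, 3 were past 1.2-fold lower (23.1%, against 10.9% of tested genes), and 2 of these are NOMO copies. TMEM147 was at 40.7 and 31.0 FPKM (1425 and 1027 fragments; -0.39, -0.51 to -0.28), and NOMO2 and NOMO3 at -0.43 and -0.31. The NOMO genes are near-identical copies between which fragments can be misassigned, and the 3 NOMO genes together were at -0.19 (-0.24 to -0.14), within 1.2-fold, with 6734 and 5609 fragments. NCLN, which binds both NOMO and TMEM147, was at 43.0 and 39.9 FPKM (-0.11, -0.18 to -0.04), whereas TMCO1 and CCDC47, which serve the same multipass translocon, were at 0.20 (0.11 to 0.30) and 0.19 (0.09 to 0.29). SIL1, the nucleotide exchange factor of BiP, stood highest of the partners, at 7.97 and 9.21 FPKM (0.21, 0.04 to 0.37). HSPA5, which encodes BiP, was at 403 and 372 FPKM (-0.12, -0.14 to -0.09). Tail-anchor insertion and the ER membrane complex were the remaining groups. BAG6 of the former was lower, at 54.9 and 45.0 FPKM (-0.29, -0.35 to -0.23). MMGT1 of the latter was higher, at 8.14 and 9.83 FPKM (0.27, 0.11 to 0.44). The other tested genes of both groups were within 1.2-fold. Their ends were EMC10, at 6.37 and 5.38 FPKM (-0.24, -0.37 to -0.12), and GET4, with 104 and 118 fragments (0.24, -0.13 to 0.65). After the adjustment BAG6 was at -0.16, MMGT1 at 0.10, TMCO1 at 0.07 and CCDC47 at 0.11, and NCLN turned from -0.11 to 0.02.

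The RNA of SRP was also counted. RN7SL2 was at 754 FPKM in shControl and 1012 in shFKBP9 (4093 and 5211 fragments; 0.43, 0.37 to 0.48), while RN7SL1 had 0 fragments in both libraries. These genes and their many copies are nearly identical, so the assignment is uncertain, but the 680 RN7SL genes and pseudogenes summed to 4494 and 5616 fragments, a log2 ratio of 0.40 (0.34 to 0.46). After the adjustment for GC content, whose medians came from protein-coding genes, RN7SL2 was at 0.54. The share of other noncoding genes with such a difference was not computed. How RNA was selected for the libraries is not given in the sources used here.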

How the data were processed

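The authors removed reads with adapters, undetermined bases or low quality, aligned the paired reads to hg38 with HISAT2 2.0.5, counted them per gene with featureCounts 1.5.0-p3 and ran edgeR, whose results were not used. They deposited FPKM per gene for 1 shControl and 1 shFKBP9 library, without pooling. Whether strand was used in counting is not given in the sources used here.

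Here, fragments were recovered by dividing FPKM times gene length by the smallest such product of the library, and 100% of values above 0 were whole within 0.01. Log2 ratios of single genes were computed with 0.1 added to FPKM. Those of the summed RN7SL and NOMO genes used scaled fragments without an addition. Tested genes were protein-coding with at least 1 FPKM in either library. Intervals at 95% are exact Clopper-Pearson bounds of the fragments without an addition, so they belong to a slightly different ratio than the value they follow. Values were calculated in Python 3.11.15 with numpy 2.4.6, pandas 2.3.3 and scipy 1.17.1, and the recovery, ratios and intervals were tested on simulated data. GC content and transcript length are of GENCODE release 44 canonical transcripts, and pseudogenes were matched by name. Named genes are FKBP9, all members, markers (except 1 that is not reported here), the genes of the neighbouring steps that were past 1.2-fold or had the highest or lowest ratio of their group, and pseudogenes of members with at least 50 fragments in both libraries together. The RN7SL genes, MOGS, NUS1P1, DHDDS, PRKCSH, CALR, CANX, NCLN, TMCO1, CCDC47, HSPA5 and TMEM258 were named with their values in view. Members and lists were chosen with earlier results of these data known. Alternatives were other additions, scalings and minimum values, pseudogenes summed and, added after the data were seen, an adjustment for GC content in 20 bins and canonical transcript lengths.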

Additional observations from a re-analysis of the deposited data

How the results depend on the processing

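No paired analysis was possible because each condition had 1 library, and for the same reason no library could be left out. Adding 1 in place of 0.1 to FPKM moved the log2 ratio of FKBP9 to -3.16. The number of members past 1.2-fold higher was 3 with 1 added (5.97% of tested genes), 5 with 0.01 added (9.50%) or with scaling by the median ratio (10.5%), and 4 with TPM (8.24%), without a minimum (10.4%), with 1 FPKM in both libraries (8.35%) or with pseudogenes summed (9.11%). It was 2 with at least 10 FPKM in either library (6.78%), which leaves out SEC63 and SRP19 and keeps SEC62 only through its level in shFKBP9, and 0 after the adjustment for GC content (7.47%). The number past 1.2-fold lower, or past 2-fold in either direction, was 0 under every alternative run. The median of signal peptidase became -0.12 after the adjustment for GC content. The median of all members lay between 0.01 after that adjustment and 0.07 with scaling by the median ratio, and that of tested genes between -0.04 and 0.00. Scaling by the median ratio shifted all genes by 0.02 and TPM by -0.02. Counting limits the ratios of SEC61A2, SEC11C and SRP19, with 208 to 348 fragments in a library, most. Of the log2 ratios of single members under these alternatives, 174 moved by no more than 0.5 of the width of their counting interval and 18 by more, all of the latter after the adjustment for GC content, and the cause was not tested.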

Other observations

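The deposited genes hold 34 pseudogenes of 15 members, of which 12 had a fragment, and together they held 168 fragments in shControl and 166 in shFKBP9. SPCS2P4, a pseudogene of SPCS2, held 94 and 89 fragments beside 711 and 680 on SPCS2, and SSR4P1 held 32 and 37 beside 2623 and 2452 on SSR4. Genes named as antisense to a member held few fragments, and without a known strand setting these cannot be told apart from fragments of the member. TRAM2-AS1 had 196 and 173 fragments, SRP14-AS1 74 and 53 and SRP54-AS1 19 and 13, and SEC62-AS1, which is antisense to the member with the largest ratio, had 4 and 1. TRAM1L1, another gene of the TRAM family, was at 2.43 FPKM in shControl and 2.13 in shFKBP9 from 89 and 74 fragments, a log2 ratio of -0.18 (95% interval -0.65 to 0.27). Apart from SPCS2P4 and SSR4P1, the genes of this paragraph lie outside the rule for named genes and were picked with their values in view.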
